A study of Mus musculus with 30 samples.

Results

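The terminal ileum of untreated C3H/HeOuJ mice was compared at 6 weeks of age between specific-pathogen-free (SPF) and germ-free (GF) animals, to see which transcripts differ with the presence of a microbiota. The comparison uses 6 of the series' 30 libraries, 3 per group, chosen by the tissue, age, colonization status and treatment given in the labels, and every effect is SPF minus GF, so that a positive value is a higher level in SPF ileum. No mutant allele, transgene or agent is recorded for either group. SPF mice carry a microbiota free of listed pathogens, and GF mice carry no known microbes. Beside them stand 3 SPF and 3 GF ileum libraries from 10-week-old mice, and 3 libraries from 6-week-old mice that were born germ-free and received SPF microbiota at 5 weeks (COL). The fit behind the p-values also held 3 ileum libraries from 10-week-old mice colonized at 5 weeks, which are not compared here. All were untreated mice of the same strain. The series title names intestinal macrophages, but the RNA is total RNA of whole tissue, made into 3′ tag libraries in which a read stands for the polyadenylated end of a transcript. The labels speak of triplicates and do not say that each library is a separate mouse, so p-values measure the spread between these libraries, which may be partly technical.

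The terminal ileum is lined by an epithelium that absorbs bile acids and the remaining fat, sugar and peptides, and that secretes antimicrobial lectins, defensins and mucus into the lumen. Bacteria are sensed by epithelial and immune cells, and the cytokines that follow, above all interleukin-22 and interferon-gamma, induce Reg3 lectins, nitric oxide synthase, interferon-induced GTPases and major histocompatibility complex (MHC) molecules. Microbes also draw lymphocytes into the epithelium and plasma cells that make immunoglobulin A (IgA) into the lamina propria, and germ-free rodents are known for sparse populations of both. Fatty acid oxidation in enterocytes is controlled by the nuclear receptor PPARα, which free fatty acids activate.

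Reads assigned to genes were between 6907710 and 9088573 in the SPF libraries and between 4310382 and 7339857 in the GF libraries. The 10 genes with most reads took 11.83 to 15.75% of the assigned reads in SPF and 7.314 to 8.185% in GF ileum. The ileal label was checked against regional markers: the 12 markers of ileum summed to 27800 to 38230 CPM (read counts scaled to library size, as described in the processing) in the 6 libraries, with 1 called higher and 5 lower in SPF (3 lower without GF library 1), while Hoxb13, a marker of the distal colon, and Pdx1, of the duodenum, had no read in any. The 15 colon markers (2 at 0 in all 6) summed to 1749 to 5084 CPM in SPF and 1061 to 1083 CPM in GF ileum, most of the SPF surplus being Saa1, and Car1 and Aqp8 were at 0 in every SPF library. The 11 markers of the proximal small intestine (1 at 0 in all 6) summed to 81.42 to 194.4 CPM in SPF and 248.7 to 352.1 CPM in GF ileum. Most of the GF sum was Fabp1, at 207.8 to 283.8 CPM in GF and 15.26 to 17.05 CPM in SPF libraries. Of the 6 members tested 4 had a positive and 2 a negative log2 fold change. Single libraries stood apart within both groups. Of 17 markers of follicular B cells in the files, 1 was at 0 in all 6 libraries, and their summed level was 177.1 CPM in GF library 1 against 6.141 to 7.597 CPM in the other GF libraries and 16.43 to 16.87 CPM in SPF ileum. The 8 fat cell markers summed to 981.6 and 576 CPM in GF libraries 2 and 3, against 64.05 CPM in GF library 1 and 46.8 to 57.56 CPM in SPF ileum. SPF library 3 was the SPF library closest to the GF group in 418 of the 578 genes called higher, and SPF libraries 1 and 2 lay closer together than any other pair of ileum libraries of one group, at a chi-square of 5.293 per degree of freedom, still above sampling noise. Pancreas markers (13, of which 6 at 0 in all) summed to 75.92 to 135.4 CPM, and red blood cell markers (9, of which 8 at 0 in all) to at most 3.128 CPM. What part these other cells have in the differences below was not tested, and values without the libraries concerned are given where they change a result.

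Of 24746 gene symbols, 13233 had enough reads to be tested with edgeR's quasi-likelihood test, in one fit of all 18 ileum libraries. At a Benjamini-Hochberg adjusted p under 0.05, which is what "called" means here, 578 genes were higher in SPF ileum (4.37% of those tested) and 440 were lower (3.33%), 1018 in either direction (7.69%). The median log2 fold change of all genes tested was -0.015. A change of at least 4-fold was reached by 132 of the genes called higher and 63 of those called lower. The 3 SPF libraries lay wholly above the 3 GF libraries in 564 of the 578, and wholly below them in 437 of the 440, where 15.5% and 15.7% of all genes tested did so. The plot of all genes tested shows the antimicrobial lectins Reg3g and Reg3b as abundant transcripts with large increases, and lipid and transport genes such as Fabp1, Pdk4 and Slc28a1 among the decreases.

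**Figure D1:**
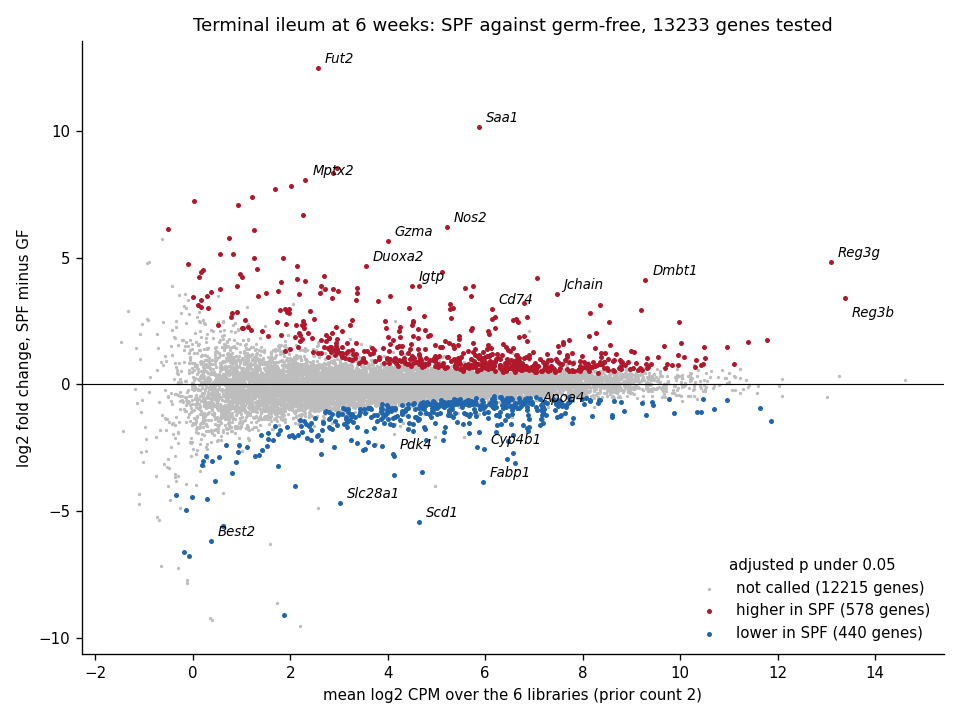
Log2 fold change (SPF minus GF, y axis) against mean log2 CPM over the 6 libraries (x axis), 1 point per gene tested, with 578 genes called higher in red and 440 called lower in blue. Reg3g and Reg3b stand far right above 0, Fabp1 and Scd1 below it; for a gene with no read in 1 group, such as Fut2, the height depends on the fit and is not a measured fold.

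Most antimicrobial and surface defence genes tested were higher in SPF ileum. Of 25 genes in this list 23 were tested, 14 were called higher, 2 were called lower (Reg1 and Reg4), and the median log2 fold change was 2.43. The members called higher were Reg3b, Reg3g, Retnlb, Nos2, Duoxa2, Fut2, Saa1, Saa2, Saa3, Pla2g2a, Pigr, Sprr2a3, Tifa and Tlr2. In whole tissue, more RNA per cell and more cells of a type cannot be told apart, here or in any group that follows. Reads that align to several places are left out of such counts, so genes with near-identical relatives (the Saa, Reg3, defensin, GTPase, MHC, granzyme and carboxylesterase families) have uncertain levels.

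Reg3g, a lectin that kills Gram-positive bacteria, stood at 61882, 56763 and 27902 CPM in SPF libraries 1, 2 and 3 and at 2447, 1502 and 1201 CPM in GF libraries 1, 2 and 3. All SPF libraries lay above all GF libraries, with SPF library 3 the lowest of its group. The log2 fold change was 4.83 ± 0.57 (SE, n = 3 against 3; edgeR adjusted p = 9.08e-05), a 28.5-fold difference. Reg3b, a related lectin also on chromosome 6, was at 45468, 41105 and 22608 CPM in SPF and 4753, 3047 and 2498 CPM in GF libraries. The groups again did not overlap, and Reg3b transcripts were plentiful in GF ileum too. Its log2 fold change was 3.41 ± 0.43 (edgeR adjusted p = 7.31e-05). Reg3a, of the same family, was not called, at 1013, 882 and 323 CPM in SPF and 1285, 863 and 1021 CPM in GF libraries. Saa1, an acute phase protein made by ileal epithelium (mm10 chr7:46740497-46742980, protein-coding), measured 2969, 3192 and 589 CPM in SPF and 4.88, 0.894 and 0.801 CPM in GF libraries. It was nearly absent from GF ileum, and SPF library 3 held far less of it than the other SPF libraries. The log2 fold change was 10.17 ± 1.11 (edgeR adjusted p = 9.88e-05) and became 11.33 without GF library 1.

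Genes that serve the production of reactive oxygen and nitrogen species were among those called. Nos2, the inducible nitric oxide synthase (mm10 chr11:78920787-78960254), stood at 492, 394 and 170.0 CPM in SPF and 6.79, 1.49 and 6.01 CPM in GF ileum. The highest GF library was far below the lowest SPF library, and the log2 fold change was 6.23 ± 0.61 (edgeR adjusted p = 3.24e-05). Duoxa2, which brings the hydrogen peroxide-producing oxidase Duox2 to the cell surface, was at 82.6, 77.9 and 27.6 CPM against 2.12, 1.04 and 3.87 CPM, with a log2 fold change of 4.70 ± 0.75 (edgeR adjusted p = 0.00155), or 5.35 without GF library 3. Duox2 itself had few reads, at 2.05, 1.61 and 1.89 CPM against 0.636, 0 and 0.4 CPM, and was not called (adjusted p = 0.144). Fut2, the fucosyltransferase that places fucose on epithelial glycans (mm10 chr7:45648591-45666394), reached 165, 157 and 43 CPM in SPF ileum and had no read in any GF library. With 2690 reads against 0, and a floor of 3 counts over the GF group, it was at least 779-fold higher in SPF ileum (edgeR adjusted p = 0.00941, and 0.0895 when the fit held only these 6 libraries). Of 19 tested genes of fucosylation and glycosylation 6 were called higher and none lower, with a median of 0.83. B3gnt7, which extends glycan chains, was at 250.0, 218 and 54.5 CPM in SPF and 9.12, 8.94 and 6.27 CPM in GF libraries, a log2 fold change of 4.43 ± 0.69 (edgeR adjusted p = 0.00155). Dmbt1, a mucin-like protein that binds bacteria, was at 3197, 3019 and 1769 CPM against 173, 138 and 145 CPM, with no overlap and a log2 fold change of 4.13 ± 0.40 (edgeR adjusted p = 6.79e-06).

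Several Paneth cell genes were higher in SPF ileum, while calls among goblet cell genes were near the share of all genes tested. Of 14 tested members of the Paneth cell list, 6 were called higher (Lyz1, Defa24, Mmp7, Itln1, Pla2g2a and Mptx2) and none lower, with a median of 1.06. Lyz1, the Paneth cell lysozyme, measured 1394, 1314 and 1439.6 CPM in SPF and 477, 539.7 and 418 CPM in GF libraries. The libraries within each group were close together and the groups lay apart, with a log2 fold change of 1.53 ± 0.34 (edgeR adjusted p = 0.00878). Pla2g2a, a bactericidal phospholipase, was at 5105, 4512 and 4715 CPM against 1582, 1595 and 1329.9 CPM, a log2 fold change of 1.67 ± 0.22 (edgeR adjusted p = 1.83e-05). Mptx2, a pentraxin of Paneth cells, had 44.2, 58.2 and 44.8 CPM in SPF ileum against 3 reads in all of GF ileum. The ratio of its 1080 to 3 reads, scaled for depth, was 313, with a 95% exact binomial interval of 107 to 1520 that covers counting error only. Without SPF library 3 and GF library 1 together 3 members were called higher, and Lyz1 had an adjusted p of 0.081. Of the 19 goblet cell genes tested, 1 was called higher and 1 lower, where 4.37% and 3.33% of all genes tested were. The main secreted mucin, Muc2, was at 4527, 4251 and 3574 CPM in SPF and 4821, 4174 and 3965 CPM in GF libraries, with overlapping groups and a log2 fold change of -0.07 ± 0.23 (edgeR adjusted p = 0.917). Retnlb, a bactericidal protein of goblet cells, measured 950.3, 1088 and 644 CPM against 173, 168 and 139 CPM, and its log2 fold change of 2.48 ± 0.55 (edgeR adjusted p = 0.0146) lost its call without GF library 1, 2 or 3 or SPF library 2 (adjusted p 0.0517 to 0.0648). Best2, a chloride channel of goblet cells, went the other way, with 1 read in all of SPF ileum and 1.48, 5.66 and 7.34 CPM in the GF libraries. It was 115-fold higher in GF ileum, with a 95% exact binomial interval of 20.2 to 4590.

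**Figure D2:**
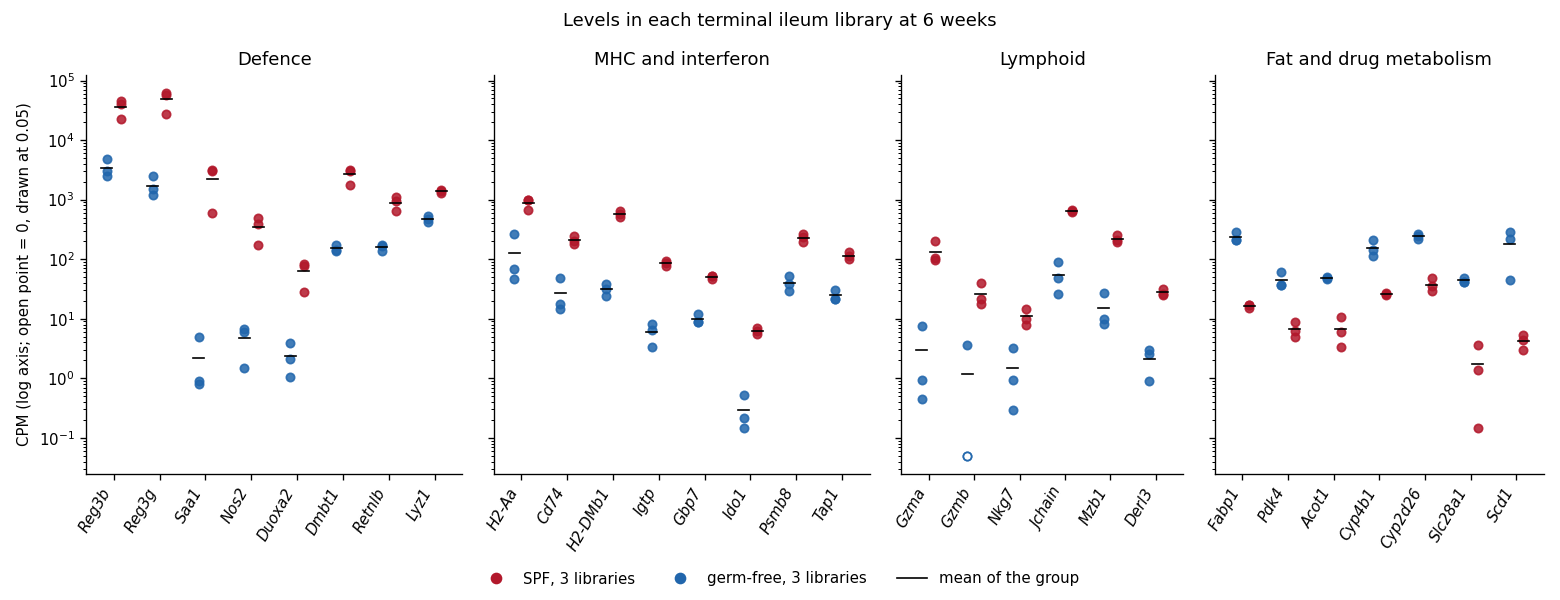
CPM of single genes on a log axis in each of the 3 SPF (red) and 3 GF (blue) libraries, with a bar at the group mean and an open point, drawn at 0.05, for a library with 0 reads. In each gene shown the groups do not overlap; the defence, MHC, interferon and lymphoid genes are higher in SPF, and the fat and drug metabolism genes lower.

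Genes of both arms of antigen presentation were called higher. In the MHC class II list 4 of 11 tested genes were called higher (H2-Aa, Cd74, H2-DMa and H2-DMb1), none was called lower, and the median was 1.39, or 2.79 without GF library 1. In the MHC class I and immunoproteasome list 12 of 18 were called higher, none lower, and the median was 0.88. H2-DMb1, a subunit of the chaperone that loads peptide onto class II molecules (mm10 chr17:34153072-34160230), measured 569, 645 and 516 CPM in SPF and 38.4, 24.3 and 32.2 CPM in GF libraries. Both groups were tight and lay far apart, with a log2 fold change of 4.19 ± 0.27 (edgeR adjusted p = 7.96e-10). Cd74, the invariant chain that escorts class II, was at 246, 201 and 182 CPM against 48.6, 17.7 and 14.8 CPM, and GF library 1, the one with follicular B cell transcripts, was the highest of the GF libraries. Its log2 fold change was 2.98 ± 0.34 (edgeR adjusted p = 3.24e-05), and 3.68 without that library. H2-Aa, a class II chain, was at 975, 973 and 681 CPM against 266, 67.2 and 46.2 CPM, with the same GF library again on top. Its log2 fold change of 2.80 ± 0.60 (edgeR adjusted p = 0.0125) was 3.94 without GF library 1, and the call was lost without GF library 2 (adjusted p = 0.0664) or with only these 6 libraries in the fit (0.116). Ciita, the transcriptional master regulator of class II genes, was at 12.5, 11.6 and 12.1 CPM against 8.91, 3.72 and 1.87 CPM and was not called (adjusted p = 0.232), though it was with only these 6 libraries in the fit (0.0429).

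The class I genes called higher included the machinery that cuts and carries peptides. Psmb8, a catalytic subunit of the immunoproteasome, measured 235, 261 and 196 CPM in SPF and 52.2, 29.5 and 38.4 CPM in GF libraries, a log2 fold change of 2.53 ± 0.20 (edgeR adjusted p = 5.31e-09). Tap1, a subunit of the transporter that carries peptides into the endoplasmic reticulum, was at 101, 115 and 130.1 CPM against 30.8, 21.6 and 21.8 CPM, a log2 fold change of 2.23 ± 0.22 (edgeR adjusted p = 2.18e-07). Neither gene's groups overlapped. Nlrc5, the class I transactivator, had 9.83, 5.81 and 3.93 CPM in SPF ileum and 3 reads in all of GF ileum. The depth-scaled ratio of its 141 to 3 reads was 40.8, with a 95% exact binomial interval of 13.7 to 200, and all 3 reads were in GF library 1.

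Most genes of the interferon-gamma response that were tested were higher in SPF ileum, although Ifng itself had 4 reads in SPF and 0 in GF ileum and could not be tested. Of 24 tested members 14 were called higher and none lower, with a median of 2.06; among them were Irf1, Irf8, Gbp4, Gbp7, Iigp1, Irgm1, Irgm2, Igtp, Ido1, Cxcl9, Socs1, Ubd and Cd274. Irgm2, an immunity-related GTPase (mm10 chr11:58199618-58222782), measured 122, 116 and 109 CPM in SPF and 15.7, 10.7 and 12.3 CPM in GF libraries. The lowest SPF library was far above the highest GF library, and the log2 fold change was 3.18 ± 0.21 (edgeR adjusted p = 7.22e-10). Igtp, a related GTPase, was at 87.4, 92.3 and 77.9 CPM against 8.27, 6.41 and 3.34 CPM, a log2 fold change of 3.87 ± 0.53 (edgeR adjusted p = 0.000404). Its GENCODE position (chr11:58199556-58207591) lies mostly within that of Irgm2 on the same strand. Under that annotation reads of one could be counted for the other or dropped. The RefSeq start region of Irgm2, printed below, lies past the end of Igtp, and the annotation used for counting is not given. Gbp7, a guanylate-binding protein, was at 46.4, 51.5 and 52.5 CPM against 11.9, 8.94 and 8.94 CPM, a log2 fold change of 2.35 ± 0.22 (edgeR adjusted p = 7.18e-08). Cxcl9, the chemokine that attracts activated T cells, was at 23.8, 29.2 and 14.5 CPM against 1.91, 0.745 and 1.87 CPM, a log2 fold change of 3.90 ± 0.42 (edgeR adjusted p = 1.38e-06). For these genes the groups did not overlap in any case. Ido1, which degrades tryptophan, went from 0.212, 0.149 and 0.534 CPM in GF to 6.31, 5.56 and 7.12 CPM in SPF libraries, a log2 fold change of 4.24 ± 0.60 (edgeR adjusted p = 3.84e-05), or 5.00 without GF library 3.

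The promoters of Irgm2, Igtp, Gbp7 and Cxcl9 are printed because these are the called genes of the interferon-gamma list that the text describes and whose start region RefSeq gives. Those of Reg3b and Reg3g are printed because both of these related lectins were higher in SPF ileum. Each runs from 250 bases before to 50 after the annotated start (RefSeq, GRCm38.p6), 5′ to 3′ on the gene's strand, at chr11:58214727-58215026 (plus), chr11:58199306-58199605 (plus), chr3:142530086-142530385 (plus), chr5:92328030-92328329 (minus), chr6:78370635-78370934 (plus) and chr6:78468825-78469124 (minus). Capitals mark matches on either strand to TTCNNNGAA, the core that STAT factors bind, and to GAAANNGAA, a core of the interferon-stimulated response element; the motifs share letters and may overlap.
Irgm2: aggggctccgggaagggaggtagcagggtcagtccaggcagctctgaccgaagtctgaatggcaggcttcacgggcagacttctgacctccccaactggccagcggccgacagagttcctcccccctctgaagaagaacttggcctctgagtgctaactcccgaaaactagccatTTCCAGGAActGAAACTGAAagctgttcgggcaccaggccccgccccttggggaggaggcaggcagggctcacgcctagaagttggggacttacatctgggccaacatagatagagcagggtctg
Igtp: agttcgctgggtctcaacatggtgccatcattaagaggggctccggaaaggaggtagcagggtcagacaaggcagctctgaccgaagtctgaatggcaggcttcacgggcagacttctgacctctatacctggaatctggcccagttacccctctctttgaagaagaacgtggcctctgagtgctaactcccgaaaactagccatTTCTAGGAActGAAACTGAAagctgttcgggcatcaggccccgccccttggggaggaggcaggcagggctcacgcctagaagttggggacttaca
Gbp7: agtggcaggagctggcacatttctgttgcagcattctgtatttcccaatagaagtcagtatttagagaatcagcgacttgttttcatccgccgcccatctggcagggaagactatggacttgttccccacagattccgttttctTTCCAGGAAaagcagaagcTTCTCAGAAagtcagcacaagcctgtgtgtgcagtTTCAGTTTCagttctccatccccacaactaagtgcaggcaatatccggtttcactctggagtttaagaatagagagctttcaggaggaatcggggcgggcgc
Cxcl9: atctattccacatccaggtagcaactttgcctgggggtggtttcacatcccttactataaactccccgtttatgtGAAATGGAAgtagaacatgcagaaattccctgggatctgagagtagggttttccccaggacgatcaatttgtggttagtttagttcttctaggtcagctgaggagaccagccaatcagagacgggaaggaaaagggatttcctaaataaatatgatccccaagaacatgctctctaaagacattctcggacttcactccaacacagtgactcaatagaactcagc
Reg3b: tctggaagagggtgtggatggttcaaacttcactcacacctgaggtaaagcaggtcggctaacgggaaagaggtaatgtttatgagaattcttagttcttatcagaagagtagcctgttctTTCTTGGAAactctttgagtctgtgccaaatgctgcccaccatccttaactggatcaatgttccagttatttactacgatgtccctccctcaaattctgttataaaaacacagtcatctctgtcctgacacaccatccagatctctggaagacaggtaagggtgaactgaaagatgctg
Reg3g: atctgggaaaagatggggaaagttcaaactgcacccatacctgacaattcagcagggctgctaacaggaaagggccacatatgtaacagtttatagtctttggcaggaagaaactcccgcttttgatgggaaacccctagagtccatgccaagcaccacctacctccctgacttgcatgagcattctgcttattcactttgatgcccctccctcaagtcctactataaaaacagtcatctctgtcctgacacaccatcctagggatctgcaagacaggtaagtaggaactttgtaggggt
The response element core was present in all 4 of the named interferon-gamma genes with a promoter, against 8.56% of 32851 promoters, and the STAT core in 3 of those 4, against 8.3%. Called members of that list outside the named genes were not searched. The Irgm2 and Igtp windows share a nearly identical stretch around both motifs, so they are not independent. Of 3 class II promoters searched 0 held either motif. Of 3 class I promoters 0 held the response element core and 1 the STAT core. The Psmb9 and Tap1 windows among them cover largely the same stretch on opposite strands, so they are not independent. In Igtp the first base of the STAT core lay at -45 from the start and that of the response element core at -34, and in Irgm2 at -75 and -64. In Gbp7, STAT cores lay at -106 and -87 and a response element core at -52. Reg3b held a STAT core at -129, and the Reg3g window held neither motif. Over the 19 promoters of called named genes in 5 lists, 8 held the STAT core and 6 the response element core. A match describes letters in this window and is not a measured binding site.

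The type I interferon list had 8 of 25 tested genes called higher and none lower, with a median of 0.86. Zbp1, a sensor of nucleic acids, was at 31.7, 33.6 and 17.6 CPM in SPF against 3.18, 0.745 and 0.667 CPM in GF libraries, a log2 fold change of 4.30 ± 0.54 (edgeR adjusted p = 4.72e-05), or 5.25 without GF library 1. Ifit1bl1, an interferon-induced RNA-binding protein, was at 216, 236 and 92.2 CPM against 21.4, 14 and 13.1 CPM, a log2 fold change of 3.50 ± 0.41 (edgeR adjusted p = 7.31e-05). The groups overlapped in neither. The count of 8 fell to 2 without SPF library 1 or GF library 2 and to 3 without SPF library 2.

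Many transcripts of intraepithelial lymphocytes and of plasma cells were higher in SPF ileum. Of 20 tested genes of intraepithelial lymphocytes 11 were called higher and none lower (Cd3g, Cd8a, Gzma, Gzmb, Ccl5, Nkg7, Itgae, Cd7, Xcl1, Ctsw and Ccr9), with a median of 2.53, or 3.92 without GF library 1. The 22 markers together gave 190.7, 203.1 and 422.4 CPM in the SPF libraries and 62.35, 13.41 and 12.95 CPM in the GF libraries, so SPF library 3 was the highest and GF library 1 the highest of its group. Gzma, a granule protease of cytotoxic lymphocytes (mm10 chr13:113093825-113100981), measured 95.4, 106 and 201 CPM in SPF and 7.63, 0.447 and 0.934 CPM in GF libraries. The groups did not overlap, and the log2 fold change of 5.67 ± 0.78 (edgeR adjusted p = 0.000589) was 7.53 without GF library 1. Gzmb, a second granzyme, was at 21.3, 17.7 and 39.1 CPM against 3.61, 0 and 0 CPM, with all its GF reads in library 1, so that no fold can be given without that library. Its log2 fold change was 4.69 ± 0.84 (edgeR adjusted p = 0.00274, and 0.0731 with only these 6 libraries). Cd7, a surface glycoprotein of T and natural killer cells, was at 4.99, 7.66 and 16.9 CPM against 2.12, 0 and 0.534 CPM, a log2 fold change of 3.61 ± 0.80 (edgeR adjusted p = 0.00753), or 5.03 without GF library 1. The count of 11 dropped to 5 without GF library 2, GF library 3 or SPF library 3 and to 7 without SPF library 1. In the list of helper T cells and innate lymphoid cells 1 of 12 tested genes was called higher, and Il22 had no read in any of the 6 libraries.

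Of 20 plasma cell and IgA genes listed, 13 were among the gene symbols and 12 were tested. Of these 12, 9 were called higher and none lower (Jchain, Mzb1, Derl3, Tnfrsf17, Xbp1, Pigr, Ccl28, Ccr10 and Prdm1), with a median of 2.22, or 2.83 without GF library 1. The 3 not called were Pou2af1, Tnfsf13b and Sdc1. Sdc1 was at 173, 215 and 168 CPM in SPF and 161, 166 and 198 CPM in GF libraries. Jchain, which joins IgA into dimers (mm10 chr5:88519809-88527891), measured 648, 617 and 677 CPM in SPF and 88.2, 26.5 and 47.9 CPM in GF libraries. SPF libraries were alike and GF libraries were all far lower, with a log2 fold change of 3.59 ± 0.38 (edgeR adjusted p = 1.98e-05). Mzb1, a chaperone for antibody assembly, was at 191, 208 and 252 CPM against 26.9, 8.19 and 9.88 CPM, a log2 fold change of 3.90 ± 0.62 (edgeR adjusted p = 0.00183), or 4.57 without GF library 1. Derl3, of the pathway that clears misfolded protein from the endoplasmic reticulum of secretory cells, was at 31.5, 25 and 26.3 CPM against 2.54, 0.894 and 2.94 CPM, a log2 fold change of 3.69 ± 0.35 (edgeR adjusted p = 8.36e-08). In both genes every SPF library exceeded every GF library. Pigr, the epithelial receptor that carries IgA into the lumen, rose from 437, 422 and 437 CPM in GF to 2639, 2797 and 1759 CPM in SPF libraries, a log2 fold change of 2.47 ± 0.20 (edgeR adjusted p = 7.27e-09). Ccl28, a chemokine for IgA-producing cells, was at 59, 46.9 and 33.9 CPM against 14.4, 9.68 and 14.7 CPM, a log2 fold change of 1.85 ± 0.22 (edgeR adjusted p = 3.19e-06). Follicular B cell genes gave no call among 15 tested, and their median was -3.14 with all libraries and 2.09 without GF library 1. Cr2 and Ms4a1, chosen after their values were seen, stood in GF library 1 at 19.3 and 12.9 CPM.

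Of 21 macrophage markers tested, 3 were called higher and none lower, where 4.37% and 3.33% of all genes tested were. Their median was 0.40, and 17 had a positive log2 fold change. The SPF libraries lay wholly above the GF libraries in 8 and wholly below in 1, where 15.5% and 15.7% of all genes tested did so. The 22 markers summed to 972.4 to 983.7 CPM in SPF and 848 to 913.3 CPM in GF ileum. Maf alone gave 369.9 to 388.5 CPM of the SPF sums and 401.3 to 444.7 CPM of the GF sums. The count called higher was 5 without GF library 1, 0 without GF library 3 and 1 without GF library 2, SPF library 1 or SPF library 2. Csf1r, the receptor for the macrophage growth factor, was at 14.4, 14.2 and 13.5 CPM in SPF and 15.7, 10.3 and 10 CPM in GF libraries, and the groups overlapped (log2 fold change 0.24 ± 0.29, edgeR adjusted p = 0.707). Cx3cr1, a chemokine receptor of resident gut macrophages, was at 12.3, 15.8 and 16 CPM against 10.2, 11.5 and 10.8 CPM. Its groups did not overlap, but it was not called (edgeR adjusted p = 0.454). Adgre1, which encodes F4/80, was at 3.37, 2.47 and 2.33 CPM against 2.12, 1.34 and 1.74 CPM. Its groups did not overlap either, and it was not called (edgeR adjusted p = 0.547). The scavenger receptor Cd163 and the monocyte chemokine receptor Ccr2 were not called either, with log2 fold changes of 0.40 ± 0.73 (edgeR adjusted p = 0.826) and 0.92 ± 0.66 (edgeR adjusted p = 0.476). Among those that rose, C1qa, a complement component made by macrophages, was at 50.3, 51.1 and 71.4 CPM against 34.6, 35 and 23.9 CPM, a log2 fold change of 0.89 ± 0.21 (edgeR adjusted p = 0.00917), and lost its call without GF library 3 (adjusted p = 0.074) or SPF library 3 (0.0612). In the monocyte and neutrophil list, Ly6c2, a surface protein of inflammatory monocytes that other leukocytes also carry, measured 21.6, 24.8 and 30.5 CPM in SPF and 2.76, 0.894 and 2.14 CPM in GF libraries. Its groups lay far apart, with a log2 fold change of 3.76 ± 0.30 (edgeR adjusted p = 7.27e-09), and it was 1 of 2 genes called higher among 5 tested.

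Of 16 tested cytokines and chemokines 6 were called higher and none lower, with a median of 2.02. Il18, an epithelial cytokine of the interleukin-1 family, was at 209.9, 210.2 and 152 CPM in SPF and 17, 30.2 and 43.1 CPM in GF libraries, a log2 fold change of 2.65 ± 0.45 (edgeR adjusted p = 0.00203). Il18bp, its secreted inhibitor, was at 41.7, 48.3 and 25 CPM against 5.3, 1.19 and 2.27 CPM, a log2 fold change of 3.79 ± 0.48 (edgeR adjusted p = 7.27e-05), or 4.43 without GF library 1. Both the cytokine and its inhibitor were therefore higher in SPF ileum. Ccl8, a chemokine for monocytes and T cells, was at 17.8, 15.8 and 13.8 CPM against 1.06, 1.04 and 0.534 CPM, a log2 fold change of 4.17 ± 0.63 (edgeR adjusted p = 0.000177).

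Most genes of fatty acid oxidation tested were lower in SPF ileum. Of 24 tested targets of PPARα and oxidation enzymes 17 were called lower and none higher, 23 had a negative log2 fold change, and the median was -0.71. Among the 17 were Cpt1a, Acadm, Hadha, Hadhb, Ehhadh, Acaa1b, Acaa2, Pdk4, Cyp4a10, Ppara, Acot1, Acot2, Ech1, Etfdh, Angptl4 and Acsl1. Leaving out SPF library 1 reduced the count to 10, and leaving out GF library 2 or SPF library 2 to 11. Pdk4, the kinase that turns off pyruvate dehydrogenase when fat is burned, measured 6.31, 4.94 and 8.72 CPM in SPF and 37.3, 36.5 and 60.2 CPM in GF libraries. All SPF libraries were far below all GF libraries, with a log2 fold change of -2.75 ± 0.31 (edgeR adjusted p = 2.51e-06). Acot1, an acyl-CoA thioesterase, was at 6.02, 3.34 and 10.8 CPM against 47.7, 49.9 and 45.9 CPM, a log2 fold change of -2.84 ± 0.32 (edgeR adjusted p = 1.83e-06). Acaa1b, a peroxisomal thiolase, was at 49.9, 49.4 and 43.8 CPM against 163, 184 and 229.7 CPM, a log2 fold change of -2.01 ± 0.25 (edgeR adjusted p = 1.45e-05).

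Some fat absorption genes were lower too, with 6 of 21 tested members called lower (Apoa1, Apoa4, Fabp1, Fabp2, Plin2 and Creb3l3), none higher and a median of -0.31, and 3 called lower without SPF library 3 and GF library 1. Fabp1, a fatty acid-binding protein shared with liver (mm10 chr6:71199827-71205023), measured 15.3, 17 and 16.9 CPM in SPF and 284, 208 and 214 CPM in GF libraries. It was 14.3-fold higher in GF ileum, with a log2 fold change of -3.84 ± 0.47 (edgeR adjusted p = 0.000128). Fabp1 is also a marker of the proximal small intestine, and of 6 tested markers of that region it was the only one called lower, while Slc40a1 was called higher. Fabp2, the intestinal fatty acid-binding protein, was at 2441, 2283 and 2133 CPM against 7337, 6710.3 and 4575 CPM, a log2 fold change of -1.44 ± 0.23 (edgeR adjusted p = 0.000173). Apoa1, the main protein of high-density lipoprotein, was at 2762, 2359 and 1929 CPM against 5549, 3952 and 3840.4 CPM, a log2 fold change of -0.92 ± 0.21 (edgeR adjusted p = 0.00709, and 0.056 without GF library 1). The largest fall by the naming rule was that of Scd1, the desaturase that makes oleate, at 2.93, 4.45 and 5.23 CPM in SPF and 45.4, 289 and 215 CPM in GF libraries. GF libraries 2 and 3, which held the fat cell transcripts, were the highest, while GF library 1, whose fat cell markers were near the SPF level, was also above every SPF library. Its log2 fold change of -5.44 ± 1.42 (edgeR adjusted p = 0.035) lost its call without GF library 2, GF library 3 or any single SPF library (adjusted p 0.0692 to 0.144). Adipoq, the fat cell hormone, was chosen after its values were seen and was at 0, 86.1 and 60.5 CPM in the GF libraries, and edgeR called none of the 7 fat cell genes tested. At an unadjusted p under 0.05 it had 6 of the 7 lower in SPF, and DESeq2 called 4 lower.

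Some drug metabolism genes were also lower. Of 28 tested, 8 were called lower (Cyp2c65, Cyp2d26, Cyp2j6, Ces1g, Ugt2b5, Sult1d1, Abcb1a and Aldh1a1) and 1, Ces2a, higher (3 higher with only these 6 libraries in the fit), with a median of -0.62. Cyp2d26, a cytochrome P450, was at 34.9, 29.6 and 47.7 CPM in SPF and 222, 243 and 262 CPM in GF libraries, a log2 fold change of -2.70 ± 0.29 (edgeR adjusted p = 5.84e-06). Rdh7, a retinol dehydrogenase named among the largest falls, was at 24.8, 28 and 48 CPM against 279, 297 and 294 CPM, a log2 fold change of -3.11 ± 0.35 (edgeR adjusted p = 3.38e-05). Cyp4b1, a cytochrome P450 that oxidizes fatty acids, was at 27.1, 26.1 and 25.2 CPM against 206, 144 and 113 CPM, a log2 fold change of -2.56 ± 0.36 (edgeR adjusted p = 0.000246). In none of these 3 genes did the groups overlap. In the sterol synthesis list 4 of 24 tested genes were called lower and none higher with edgeR, and the median was 0.04. The count of those lower was 2 without SPF library 2, and 2 were called higher without SPF library 3. At an unadjusted p under 0.05 there were 3 higher, and DESeq2 called none higher.

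Transport and nucleoside genes moved in both directions. In the nucleoside list 3 of 13 tested genes were called higher, or 1 without SPF library 1, and 2 lower. Slc28a1, a sodium-coupled pyrimidine nucleoside transporter (mm10 chr7:81114799-81170416), was at 0.147, 1.36 and 3.63 CPM in SPF and 48.6, 42.2 and 41 CPM in GF libraries, with SPF library 3 the highest of its group. Its log2 fold change was -4.67 ± 0.57 (edgeR adjusted p = 4.19e-05), and -5.75 without SPF library 3. Cda, which deaminates cytidine, fell as well, from 239, 209 and 222 CPM in GF to 60.6, 45.5 and 82.6 CPM in SPF libraries (log2 fold change -1.83 ± 0.21, edgeR adjusted p = 3.05e-06). Upp1, which splits uridine, rose from 98.2, 106 and 132 CPM in GF to 1106, 1146 and 689.6 CPM in SPF libraries (log2 fold change 3.13 ± 0.26, edgeR adjusted p = 3.79e-08). The groups did not overlap in any of these 3. Slc28a3, which carries purine and pyrimidine nucleosides, rose from 9.33, 5.81 and 6.94 CPM in GF to 19.5, 20.8 and 14.8 CPM in SPF libraries (log2 fold change 1.33 ± 0.33, edgeR adjusted p = 0.0115). The call was lost without GF library 2, SPF library 1 or SPF library 2 (edgeR adjusted p 0.0822, 0.0506 and 0.0618). Slc28a2, which carries purine nucleosides, was at 187, 183 and 83.7 CPM in SPF and 93.5, 46.5 and 51.1 CPM in GF libraries, with overlapping groups, and was not called (log2 fold change 1.25 ± 0.48, edgeR adjusted p = 0.153). Both were added to the text after their values were seen, though Slc28a3 is among the genes that the naming rule gives. Of 17 amino acid and peptide transport genes 5 were called higher with edgeR and none lower, with a median of -0.11. DESeq2 called 2 of them lower, 6 were lower at an unadjusted edgeR p under 0.05, and 3 were called higher without GF library 1, GF library 2 or SPF library 1. Among those called higher, Slc36a1, a proton-coupled amino acid transporter, was at 37.1, 31.9 and 24.4 CPM against 14.8, 14.9 and 16.2 CPM, a log2 fold change of 1.02 ± 0.21 (edgeR adjusted p = 0.00283). Of 13 sugar handling genes 3 were called higher, or 1 without SPF library 2, and none lower, or 2 with only these 6 libraries in the fit. One of the 3, the brush border glucose transporter Slc5a1, was at 1880.0, 2018 and 1719 CPM against 1039, 1082 and 1091 CPM, a log2 fold change of 0.81 ± 0.19 (edgeR adjusted p = 0.00738). Slc22a3, an organic cation transporter, fell to 3.96, 3.83 and 7.42 CPM in SPF from 55.8, 69.9 and 54.1 CPM in GF libraries (log2 fold change -3.56 ± 0.38, edgeR adjusted p = 3.7e-06). Slc40a1, the iron exporter ferroportin, was at 136, 140.4 and 32.7 CPM against 8.91, 7.6 and 4.81 CPM, with SPF library 3 well below the other SPF libraries and a log2 fold change of 3.88 ± 0.58 (edgeR adjusted p = 0.000969).

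Bile acid genes were mixed. Of 10 tested, 2 were called higher and 1 lower. Slc51b, a subunit of the basolateral bile acid exporter, was at 566, 589.6 and 379 CPM in SPF and 199, 205 and 252 CPM in GF libraries, a log2 fold change of 1.23 ± 0.22 (edgeR adjusted p = 0.000518). Fabp6, the ileal bile acid-binding protein, was at 24337, 26628 and 30338 CPM against 16020.1, 25999 and 29093 CPM, with overlapping groups and no call (log2 fold change 0.19 ± 0.29, edgeR adjusted p = 0.78). Fgf15, the hormone that the bile acid receptor FXR induces in ileal enterocytes, was at 34.9, 33.5 and 29.4 CPM in SPF and 0.212, 0.149 and 6.27 CPM in GF libraries. Every SPF library exceeded every GF library, and GF library 3 stood above the other GF libraries, but the log2 fold change of 3.74 ± 1.09 did not pass the threshold (edgeR adjusted p = 0.0578), while without GF library 3 it did (7.36, adjusted p = 0.0209).

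The calls in the cell type and process lists below stand beside 4.37% called higher and 3.33% called lower among all genes tested. A count of 0 or 1 in lists of this size lies near those shares. Neither edgeR nor DESeq2 called a gene among 28 of the respiratory chain, 17 of smooth muscle or 14 of extracellular matrix, with medians of 0.13, -0.36 and -0.13, and at an unadjusted edgeR p under 0.05 these lists had 1 gene higher, 1 lower and 3 lower. In the smooth muscle list 16 of 17 log2 fold changes were negative, the SPF libraries lay wholly below the GF libraries in 10, and 4 were called lower with only these 6 libraries in the fit. Among 26 proliferation genes 1 was called higher, or 6 with only these 6 libraries. Their median was 0.39, and 23 of the 26 log2 fold changes were positive. At an unadjusted edgeR p under 0.05, 9 were higher and 0 lower. The SPF libraries lay wholly above the GF libraries in 11 and wholly below in 0, where 15.5% and 15.7% of all genes tested did so. The cycling marker Mki67 was 1 of 3 members with a negative log2 fold change and was not called (-0.12 ± 0.20, edgeR adjusted p = 0.803). Among 15 stem cell and Wnt genes 1 was called higher and 1 lower. The stem cell marker Lgr5 was not called (log2 fold change 0.13 ± 0.30, edgeR adjusted p = 0.873). Of 16 circadian clock genes edgeR called 3 lower and none higher. The count of those lower was 1 without GF library 2 or SPF library 1. It was 5, with 2 called higher, by DESeq2, with only these 6 libraries in the fit and without SPF library 3, and 3 were higher at an unadjusted edgeR p under 0.05. Tef, a clock-controlled transcription factor, was at 17.5, 16.7 and 21.2 CPM in SPF and 39.2, 61.7 and 56.6 CPM in GF libraries, a log2 fold change of -1.51 ± 0.29 (edgeR adjusted p = 0.00135). Nr1d1, a repressor within the clock, was at 16.6, 15.6 and 65.9 CPM against 69.4, 85.1 and 61.5 CPM, and SPF library 3 lay among the GF values while the other SPF libraries lay far below them (log2 fold change -1.14 ± 0.50, edgeR adjusted p = 0.216, and -2.16 with an adjusted p of 0.000482 without SPF library 3). Tac1, the precursor of substance P, which enteric neurons and enteroendocrine cells make, was at 256, 246 and 69.8 CPM against 16.1, 12.7 and 12.1 CPM, a log2 fold change of 3.81 ± 0.60 (edgeR adjusted p = 0.00161).

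**Figure D3:**
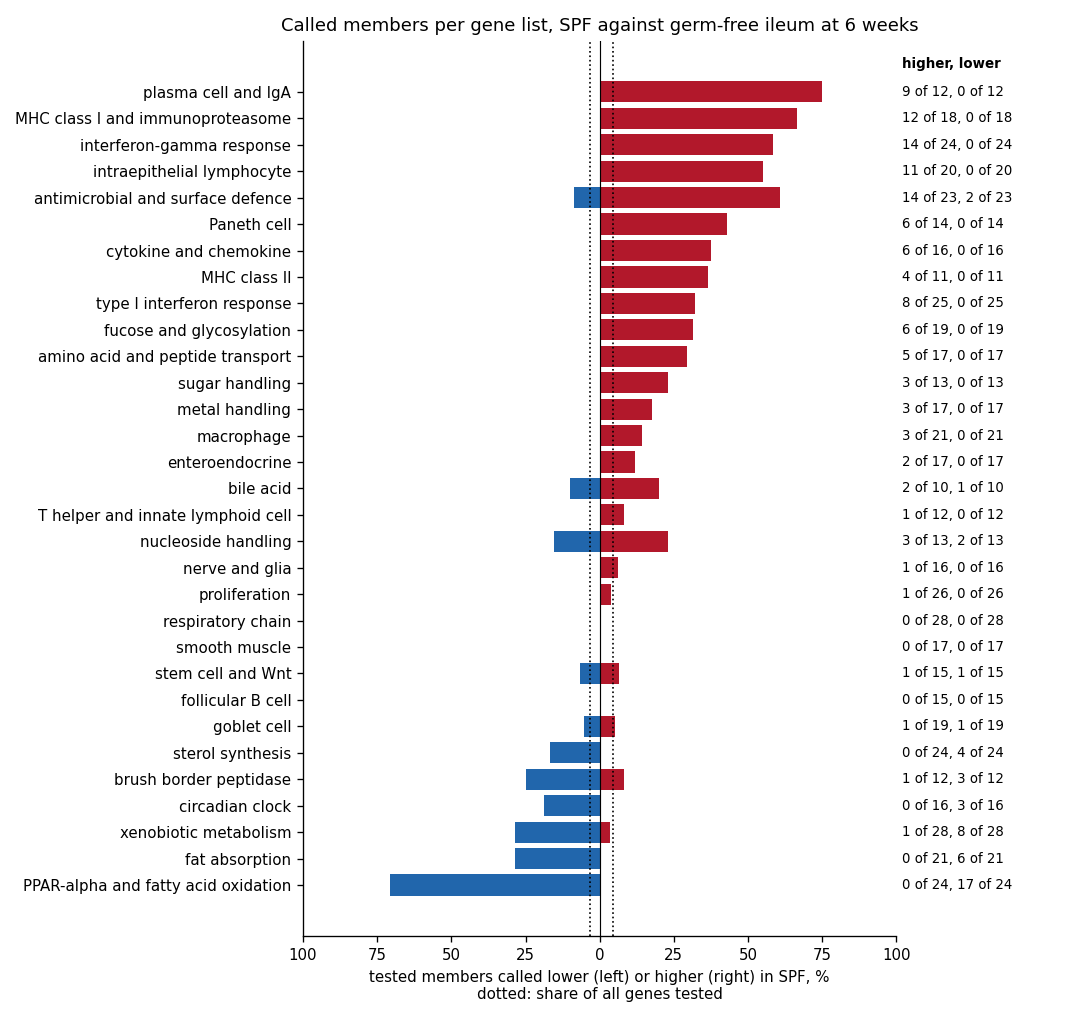
Percent of tested members called lower (blue, left of 0) or higher (red, right of 0) in SPF ileum for 31 gene lists, with the counts at the right and dotted lines at the share of all genes tested (3.33% and 4.37%). Plasma cell and IgA genes have the largest share called higher, 9 of 12, and PPARα and oxidation genes the largest share called lower, 17 of 24.

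The same comparison at 10 weeks, in 6 other libraries, called 559 genes higher (4.22%) and 262 lower (1.98%). SPF library 3 of that age had only 2233837 assigned reads. Pairs of 10-week SPF libraries correlated at 0.9089 to 0.9334 in log2 CPM, against 0.9699 to 0.9788 for those at 6 weeks. Counts of calls at the 2 ages are therefore not directly comparable. Of the genes called higher at 6 weeks, 228 were called higher at 10 weeks, which is 39.4% of the 6-week and 40.8% of the 10-week list. Of those called lower, 149 were shared, or 33.9% of the 6-week and 56.9% of the 10-week list. The sign at 10 weeks was that at 6 weeks for 951 of the 1018 genes called (93.4%). In the test of the difference between the ages 2 genes were called (0.0151%), and 1132 had an unadjusted p under 0.05. One was Apoa4, an apolipoprotein of chylomicrons (mm10 chr9:46240696-46243459). At 6 weeks it was at 101, 82.6 and 109 CPM in SPF and 255, 165 and 129 CPM in GF libraries (log2 fold change -0.91 ± 0.21, edgeR adjusted p = 0.00663, and 0.0869 without GF library 1 or 0.0617 without SPF library 2). At 10 weeks it was at 236, 296 and 327 CPM in SPF and 134, 177 and 151 CPM in GF libraries (log2 fold change 0.89 ± 0.21, edgeR adjusted p = 0.00949). SPF libraries were thus the lower ones at 6 weeks and the higher ones at 10 weeks, and the difference between the effects was -1.79 ± 0.30 (edgeR adjusted p = 0.0155). The other was Sgk1, a kinase that glucocorticoids induce (mm10 chr10:21882184-21999903). It was at 186, 168 and 144 CPM in SPF and 147, 156 and 172 CPM in GF libraries at 6 weeks, with overlapping groups (log2 fold change 0.07 ± 0.15, edgeR adjusted p = 0.87). At 10 weeks it was at 93.8, 79.1 and 83.1 CPM in SPF and 240.1, 175 and 204 CPM in GF libraries (log2 fold change -1.27 ± 0.16, edgeR adjusted p = 8.87e-06), and the effects differed by 1.34 ± 0.22 (edgeR adjusted p = 0.0155). Both calls were lost, the count being 0, without SPF library 1 or 2 or GF library 1 or 2 of the 6-week groups or GF library 1 or 3 of the 10-week group, and 13 genes were called without SPF library 3 of the 6-week group.

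The lymphoid and interferon lists at 10 weeks had 17 of 20 intraepithelial lymphocyte genes, 19 of 24 interferon-gamma genes, 7 of 11 class II genes and 9 of 12 plasma cell and IgA genes called higher. Of all genes tested 4.22% were called higher and 1.98% lower at that age. The follicular B cell list had a median of 3.34 at 10 weeks, with 1 of 15 tested genes called higher. What part such cells have in the 10-week counts was not tested. Of the oxidation genes 4 of 24 were called lower at 10 weeks, with a median of -0.33. Pdk4 was at 9.68, 11.4 and 9.12 CPM in SPF and 12.1, 16.5 and 13.9 CPM in GF libraries of that age, a log2 fold change of -0.49 ± 0.32 (edgeR adjusted p = 0.438). The difference between its effects at the 2 ages was -2.26 ± 0.44 and did not pass the threshold (edgeR adjusted p = 0.0927). Acot1 had a 10-week log2 fold change of -0.81 ± 0.33 (edgeR adjusted p = 0.157) and a difference of -2.03 ± 0.45 (edgeR adjusted p = 0.165). For these enzymes the 6-week effect was called and the 10-week effect was not, but a difference between the ages was not shown.

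**Figure D4:**
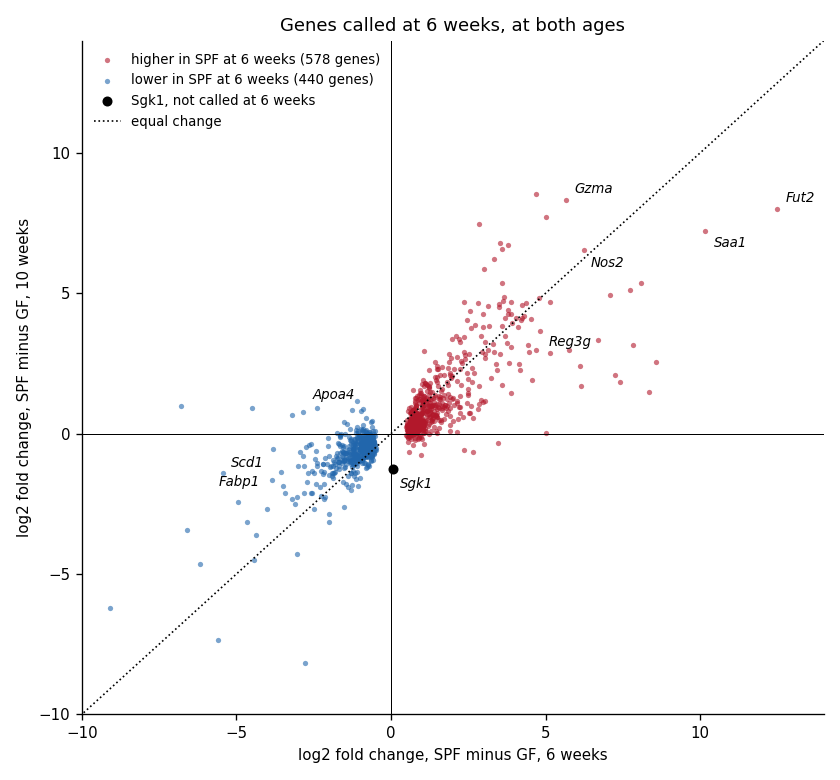
Log2 fold change (SPF minus GF) at 6 weeks (x axis) and 10 weeks (y axis) of the 578 genes called higher (red) and 440 called lower (blue) at 6 weeks, with Sgk1 in black and a dotted line of equal change. Most points keep their sign; Apoa4 lies left of 0 and above it, and the place of Fut2, with 0 reads in GF ileum at 6 weeks, depends on the fit.

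Mice colonized at 5 weeks were about a week into colonization at 6 weeks of age, and 13 genes differed between SPF and these COL libraries (10 higher and 3 lower in SPF, 0.0982% of genes tested), while 1048 had an unadjusted p under 0.05. This comparison and that of SPF with GF use the same SPF libraries. Jchain was at 52.6, 58.2 and 28 CPM in COL libraries, within the range of the GF libraries, and SPF libraries exceeded it by a log2 difference of 3.81 ± 0.39 (edgeR adjusted p = 0.000136). Derl3 was at 5.68, 4.2 and 4.85 CPM in COL libraries, above every GF and below every SPF library (SPF minus COL 2.48 ± 0.32, edgeR adjusted p = 0.000136). Ly6c2 was at 2.44, 1.55 and 2.12 CPM in COL ileum, again within the GF range (SPF minus COL 3.63 ± 0.30, edgeR adjusted p = 8.72e-08). H2-DMb1 took a middle place, at 130.5, 108 and 159 CPM in COL libraries, above all GF and below all SPF libraries. In the comparison of COL with GF, 4.64% of genes tested were called. H2-DMb1 differed from SPF by 2.12 ± 0.24 (edgeR adjusted p = 7.06e-05) and COL exceeded GF by 2.07 ± 0.25 (edgeR adjusted p = 2.17e-05). Cd74 was at 50.5, 36.3 and 48.2 CPM in COL libraries (SPF minus COL 2.22 ± 0.33, edgeR adjusted p = 0.00634). Il2rb, a receptor chain for interleukins 2 and 15 on lymphocytes, was at 6.31, 9.02 and 13.2 CPM in SPF, 1.22, 1.55 and 1.36 CPM in COL and 1.7, 0.596 and 1.33 CPM in GF libraries (SPF minus COL 2.77 ± 0.53, edgeR adjusted p = 0.0245). Apoa4 was at 283, 202 and 229 CPM in COL libraries and was lower in SPF ileum (SPF minus COL -1.29 ± 0.21, edgeR adjusted p = 0.00384).

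**Figure D5:**
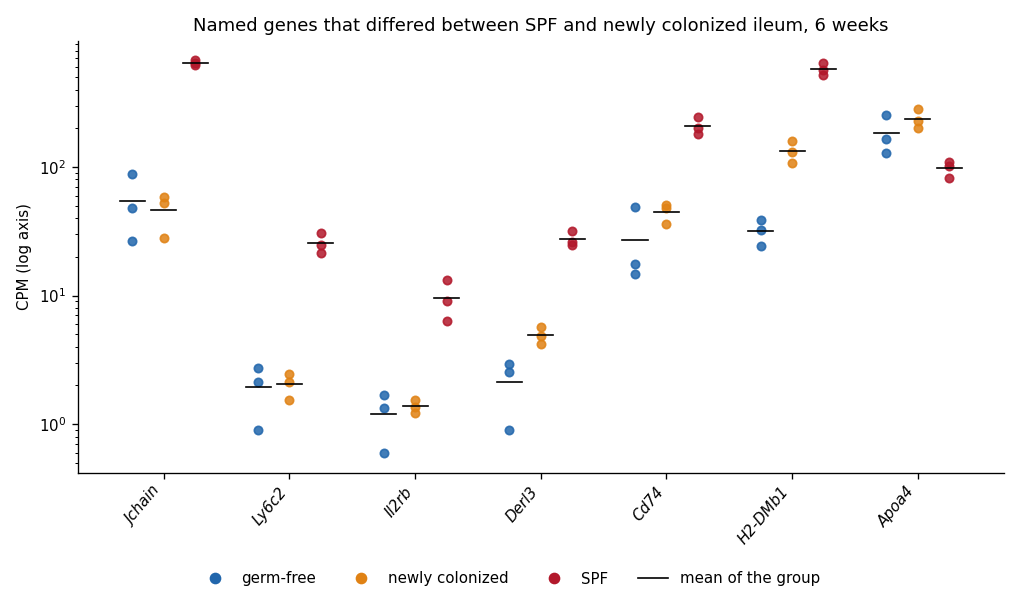
CPM on a log axis of the 7 named genes that differed between SPF and COL ileum at 6 weeks, 1 point per library (blue GF, orange COL, red SPF), with a bar at the group mean. Jchain, Ly6c2 and Il2rb in COL ileum lie at the GF level, Derl3 and H2-DMb1 between GF and SPF, and Apoa4 above SPF.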

How the data were processed

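Tissue was lysed in Qiazol for total RNA, and the QuantSeq kit (Ion Torrent) gave 3′ tag libraries, per the labels' protocols. Reads were processed with Trimmomatic 0.36, FastQC 0.11.5, STAR 2.5.3a and HTSeq on build mm10, per the submitters' processing notes; HTSeq's version, strand setting and annotation are not given in the sources used here, so overlapping and antisense genes cannot be separated. The authors deposited raw read counts per gene symbol, 1 file per library. In the 6 libraries 47.18 to 54.11% of reads were assigned to genes, 29.57 to 32.3% aligned to several places and 15.27 to 21.18% hit no gene; the 5 summary lines were left out.

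From the deposited counts, all 18 ileum libraries in 6 groups were fitted by the robust quasi-likelihood method of edgeR 4.0.16 in R 4.3.3, after filterByExpr by group and TMM scaling, with 13233 genes tested, a common biological coefficient of variation of 0.234 and Benjamini-Hochberg adjustment over all of them. CPM are counts divided by the TMM-scaled library size in units of 1e+06 reads, and log2 CPM used a prior count of 2. Standard errors were taken as the absolute log2 fold change divided by the root of the F statistic. Alternatives were DESeq2 1.42.0, DESeq2 size factors, no filter, only the groups compared, a replicate block and leaving out each library; 2 more (SPF library 3 and GF library 1 left out together, SPF libraries 1 and 2 summed) were chosen after seeing the data. There are 44 lists with 755 distinct genes (743 with a row, 636 tested), and no test was run on a list. Members and lists were chosen with earlier results of these data known. Named genes are the 12 largest rises and 12 largest falls (called, no overlap of groups, average log2 CPM 3 or more, no predicted genes or small RNAs), up to 4 called members per list with the smallest p and a set of fixed genes, and not every one is printed. Called members of a list are also given by name without values, and list members at or near 0 as markers. Positions are from GENCODE vM21, in which 13061 tested symbols matched 1 gene. The script was tested on simulated data. With 3 libraries a group and up to 9088573 assigned reads, low counts limit precision, and intervals and floors cover counting error only.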

Additional observations from a re-analysis of the deposited data

Results flagged for a closer look

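The results for Apoa4 and Sgk1 drew attention because the SPF minus GF effect differed between the ages in a test of the difference itself. The log2 fold change of Apoa4 at 6 weeks minus that at 10 weeks was -1.79 ± 0.30 (SE; edgeR adjusted p = 0.0155, 3 libraries in each of 4 groups). It was lower in all 3 SPF than in all 3 GF libraries at 6 weeks and higher in all 3 at 10 weeks. The corresponding difference for Sgk1 was 1.34 ± 0.22 (edgeR adjusted p = 0.0155), with overlapping groups at 6 weeks and all SPF libraries below all GF libraries at 10 weeks. The cause of either difference was not tested.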

How the results depend on the processing

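The 1018 genes called were 1330 with DESeq2, 1025 with DESeq2's size factors, 982 without the filter, 967 with a replicate block, 751 without SPF library 3 and GF library 1 together, 1604 (lower 753) with only the groups compared, 526 (310 higher, 216 lower) with SPF libraries 1 and 2 summed, and 513 to 944 (294 to 578 higher, 211 to 366 lower) leaving out 1 library. The lowest counts were 513 without SPF library 1, 529 without GF library 2 and 539 without SPF library 2. Without SPF library 3 and GF library 1 together, 283 were lower and 62.3% of calls were higher, against 56.8%. No called gene changed sign in any of these alternatives, which kept 49.8 to 100% of the calls. The replicate numbers did not pair the samples: deviations of same-numbered libraries correlated at 0.00661, -0.0255 and 0.0255, and with the block Itgam, Mep1b and Ccl5 lost their calls (adjusted p 0.066, 0.0676 and 0.0679) and Ciita gained one (0.0482, log2 fold change 1.54). The block gave 2 genes with a lower effect at 6 than at 10 weeks, against 1, called 2 proliferation genes higher, against 1, and 0 brush border peptidase genes, against 1, and moved no other count of calls by over 1.5 times. Genes whose effect differed between ages numbered 30 with DESeq2, 7 without the filter, 6 with only the groups compared, 3 with the replicate block and 0 to 13 leaving out 1 library. Those that differed between SPF and COL numbered 62 with DESeq2, 66 with only the groups compared, 17 with the replicate block and 8 to 18 leaving out 1 library (8 without COL library 3). Of 117 named genes called, none reversed. Among those not called, leaving out 1 library gave log2 fold changes of -0.14 to 0.025 for Muc2 (0.0087 without GF library 1), -0.031 to 0.36 for Fabp6, -0.012 to 0.12 for Abcg5, -0.26 to 0.054 for Mki67 and -0.023 to 0.16 for Sgk1, and without SPF library 3 and GF library 1 those of Muc2 and Fabp6 were 0.11 and -0.11. Causes were not tested. In simulated data of this design, with 3 libraries a group, 100 genes were changed 2-fold and 98 were changed 4-fold among 13050 tested. Of these 38% and 81.6% were recovered. The adjusted cutoff depends on how many genes change, and 1018 were called here, so these shares need not hold for the data.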

Other observations

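Prom1, which encodes a membrane protein of crypt cells, was at 168, 168 and 137 CPM in SPF and 48.4, 61.1 and 64.2 CPM in GF libraries, a log2 fold change of 1.44 ± 0.27 (edgeR adjusted p = 0.00142). Of 17 metal handling genes tested 3 were called higher and none lower. Slc30a1, a zinc exporter, rose from 75.7, 126 and 130.0 CPM in GF to 372, 402 and 190.2 CPM in SPF libraries, a log2 fold change of 1.54 ± 0.24 (edgeR adjusted p = 0.000153). In the same list the metallothionein Mt1 was not called (log2 fold change -0.65 ± 0.43, edgeR adjusted p = 0.444). Mcpt1, a protease of mucosal mast cells, was at 18.6, 14.2 and 9.16 CPM in SPF and 1.06, 1.79 and 2.54 CPM in GF libraries, with no overlap and a log2 fold change of 2.90 ± 0.78 (edgeR adjusted p = 0.0328), and lost its call without any 1 of the libraries except SPF library 3 (adjusted p 0.0792 to 0.139). It was the one gene called among the 3 mast cell genes tested.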
